A study of Homo sapiens with 6 samples.

Results

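The TRIM (tripartite motif) genes encode a large family of ubiquitin ligases, and their transcripts were measured by RNA sequencing in Huh7 cells, a human hepatocellular carcinoma line. The members were taken by symbol, as every gene named TRIM followed by a number and at most 1 letter, which gave 74 of the 50868 genes in the table. Of these, 73 are protein-coding in GENCODE release 29, and TRIM80P is a pseudogene. The cells, labelled wild type, received either the cell-permeating peptide P-T3H2 or its control, P-T3H2-2A, each at 20 µM for 5 days in medium with serum, and each peptide has 3 libraries. The study's title describes P-T3H2 as a stabiliser of the transcription factor HNF4α. The labels do not say whether the replicates were separate cultures, so p-values measure only the spread between these libraries, which may be technical.

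A typical TRIM protein carries a RING finger that recruits a ubiquitin-conjugating (E2) enzyme, then B-box zinc fingers, a coiled coil through which the protein pairs with itself or a relative, and a C-terminal domain that binds the target. The C-terminal domain divides the family. Most members end in a PRY-SPRY domain, others in NHL repeats, in a PHD finger with a bromodomain, in a MATH, ARF or transmembrane segment, or in no further domain. Many PRY-SPRY members are induced by interferon and act against viruses, as TRIM5 and TRIM22 do, or tune RIG-I-like RNA sensing, as TRIM25 and TRIM14 do. Of the PHD and bromodomain members, TRIM24, TRIM28 and TRIM33 work in the nucleus as transcriptional regulators.

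The libraries held 17434442 to 21374732 gene counts and 21815 to 22968 detected genes. In its counts, the third P-T3H2-2A library (replicate 3) resembled the libraries labelled P-T3H2 more than those of its own label. A chi-square of the counts, averaged per gene, was 11.8 to 13.8 among the P-T3H2 libraries and 11.6 between P-T3H2-2A replicates 1 and 2. Between P-T3H2-2A replicate 3 and the P-T3H2 libraries it was 12.6 to 13.4, against 77.6 and 84.7 with P-T3H2-2A replicates 1 and 2. Calls are therefore counted with all 6 libraries, as labelled, and without that library (5 libraries, 3 P-T3H2 against 2 P-T3H2-2A). With all 6 libraries edgeR called 0 TRIM genes and 0 genes of the lists described here, so a call named further on is from the 5 libraries unless a sentence says otherwise. The choice to leave it out rests on its expression profile, not on a label, and the 5-library values carry that limit. The 8 hepatocyte markers were abundant, summing to 30772, 32781 and 31210 CPM (counts scaled to a common library total) in P-T3H2 libraries and 32761, 31822 and 33053 CPM in P-T3H2-2A libraries. With 5 libraries edgeR called 2 of the 8 higher (ALB and SERPINA1) and 3 lower (AHSG, APOB and TF), and with 6 libraries DESeq2 called TF lower (adjusted p = 0.0485). The leukocyte marker PTPRC was at or below 0.841 CPM in all 6, and mitochondrial genes took 7.30 to 7.85% of counts in P-T3H2 libraries and 6.25 to 7.32% in P-T3H2-2A libraries. The 8 leukocyte markers summed to 669.7, 578.1 and 685.3 CPM in P-T3H2 libraries and 130.6, 138.2 and 653.6 CPM in P-T3H2-2A libraries, nearly all of it LYZ, and with 5 libraries 1 of the 4 tested was higher (LYZ) and 1 lower (CD68). The stromal and endothelial markers summed to 53.5, 58.6 and 63.5 CPM in P-T3H2 libraries and 51.8, 51.4 and 63.3 CPM in P-T3H2-2A libraries, and with 5 libraries 2 of the 6 tested were higher (PDGFRB and VWF) and 1 lower (PECAM1). Of 2 muscle markers tested, 1 was lower (CKM). That fit called 45.4% of all genes. The part of these differences in the results was not tested. In bulk RNA, fewer cells of a kind and less RNA per cell cannot be told apart. Values per library are in the order of replicates 1, 2 and 3.

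Reads were found for most of the family in Huh7 cells, at very unequal levels. At least 1 count was found for 56 of the 74 members, though TRIM55 had 1 count in all and TRIM72 had 2. Enough counts to test with 6 libraries were found for 47. The other 18 of the 74 had 0 counts in every library. Those 18 include TRIM63, the muscle ligase MuRF1, TRIM58, known from red cell precursors, and the primate-specific copies around TRIM43, TRIM49 and TRIM64. By mean FPKM, a level per transcript length, 7 members reached 10 or more, 20 lay from 1 to under 10, 21 from 0.1 to under 1, and 26 below 0.1. TRIM71, the stem cell RNA-binding protein also known as LIN41, stood highest, at 42.7 ± 1.68 FPKM in P-T3H2 cells and 42.6 ± 0.980 FPKM in P-T3H2-2A cells (SD, n = 3 each). TRIM28, the KRAB zinc finger corepressor KAP1, came next, at 33.7 ± 1.27 FPKM in P-T3H2 cells and 40.7 ± 5.69 FPKM in P-T3H2-2A cells. TRIM71 and TRIM28 overlapped in range across libraries, so their order was not fixed. TRIM8 followed, at 22.6 ± 1.22 FPKM in P-T3H2 cells and 17.1 ± 3.15 FPKM in P-T3H2-2A cells, below TRIM28 in every library. The next 4, TRIM44, TRIM26, TRIM24 and TRIM2, had means of 10.8, 10.6, 10.5 and 10.3 FPKM over the 6 libraries and exchanged places between libraries. Of the antiviral PRY-SPRY genes, TRIM5 averaged 2.27 ± 0.128 FPKM in P-T3H2 cells and 1.63 ± 0.599 FPKM in P-T3H2-2A cells, and TRIM22 averaged 0.0538 ± 0.0188 FPKM in P-T3H2 cells and 0.0149 ± 0.00763 FPKM in P-T3H2-2A cells. The plot of levels by library shows 27 members, and the columns with split libraries include those of TRIM2, TRIM14, TRIM62, TRIM5, TRIM23, TRIM8 and TRIM32.

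**Figure D1:**
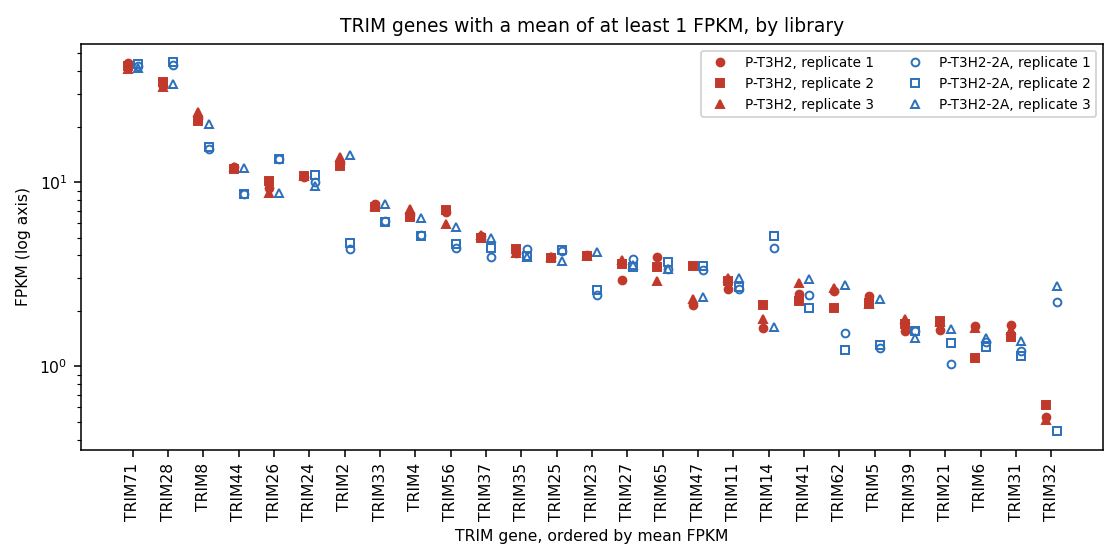
FPKM (log axis) of the 27 TRIM genes with a mean of at least 1 FPKM, ordered by mean, with 1 point per library (P-T3H2 filled red, P-T3H2-2A open blue, shape by replicate). TRIM71 at 42.7 FPKM and TRIM28 at 33.7 FPKM in P-T3H2 cells lead. P-T3H2-2A replicate 3 (open triangle) lies among the red points for TRIM14 and TRIM5 and just above them for TRIM2 and TRIM62.

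With all 6 libraries no TRIM gene passed the test. Of 47 members with enough counts to test, 0 reached an adjusted p of at most 0.05 in edgeR's quasi-likelihood test, and the same fit called 1 of all 15946 genes tested (0.00627%). At an unadjusted p under 0.05 stood 9 of the 47 members (19.1%), near the 18.0% of all genes tested. These were TRIM34, TRIM56, TRIM3, TRIM16L, TRIM8, TRIM14, TRIM67, TRIM9 and TRIM32. The 3 libraries of each group did not overlap for 10 of the 47 members (21.3%), near the background of 23.4%: TRIM16L, TRIM3, TRIM31, TRIM34, TRIM37, TRIM4, TRIM56 and TRIM8 lay higher in P-T3H2 (11.8% of all genes did), and TRIM67 and TRIM9 lay lower (11.6% of all genes did). DESeq2 on the same counts called 1 of 49 members, TRIM34 (higher, adjusted p = 6.86e-06), against 0.716% of all genes, 0.208% in that direction.

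Without P-T3H2-2A replicate 3, the fit called 24 of 49 members (49.0%), beside 7390 of all 16281 genes tested (45.4%). Of the members, 17 were higher in P-T3H2 (34.7%, against 22.6% of all genes) and 7 lower (14.3%, against 22.8%). The share called was thus near that of the whole transcriptome, and the split by direction was not tested. DESeq2 with the same 5 libraries called 14 members higher and 7 lower of 52, beside 37.8% of all genes, 18.7% higher and 19.1% lower. In the edgeR fit the higher ones were TRIM2, TRIM3, TRIM4, TRIM5, TRIM8, TRIM13, TRIM21, TRIM22, TRIM23, TRIM31, TRIM33, TRIM34, TRIM37, TRIM44, TRIM50, TRIM56 and TRIM62, and the lower ones TRIM9, TRIM10, TRIM14, TRIM15, TRIM26, TRIM28 and TRIM67. A change of 2-fold or more was estimated for 4 of the higher members, TRIM50, TRIM22, TRIM34 and TRIM2, and for 3 of the lower, TRIM67, TRIM14 and TRIM10. The median log2 fold change was 0.09 over the 47 members with 6 libraries and 0.13 over the 49 with 5 libraries, beside -0.0039 and 0.0028 over all genes tested in those fits. Against P-T3H2-2A replicate 3 alone, 1 of 52 members, TRIM32, was called and was lower (0.368% of all genes were called, 0.166% lower). The spread of the lone library had to be borrowed from the P-T3H2 group there. In the heat map by library the third P-T3H2-2A column resembles the P-T3H2 columns: for 21 of the 24 called members (87.5%, against 92.9% of all genes called) that library lay nearer the P-T3H2 mean. The other 3 were TRIM34, TRIM3 and TRIM22, for which it lay nearer the other P-T3H2-2A libraries.

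**Figure D2:**
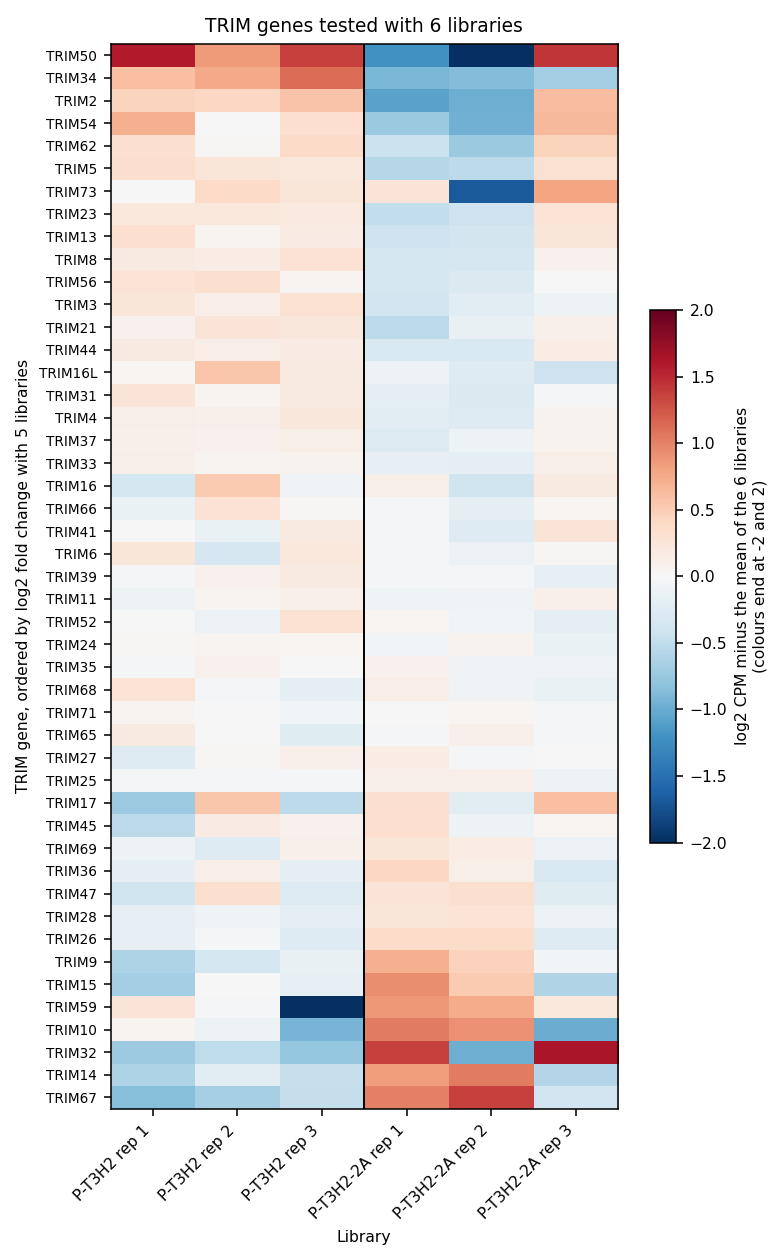
Heat map of the 47 TRIM genes tested with 6 libraries: colour gives log2 CPM in each library minus that gene's mean over the 6, P-T3H2 left of the line and P-T3H2-2A right of it, genes ordered by log2 fold change with 5 libraries. P-T3H2-2A replicate 3 has the colour of the P-T3H2 columns for TRIM2, TRIM5 and TRIM14, and that of the other P-T3H2-2A columns for TRIM34.

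**Figure D3:**
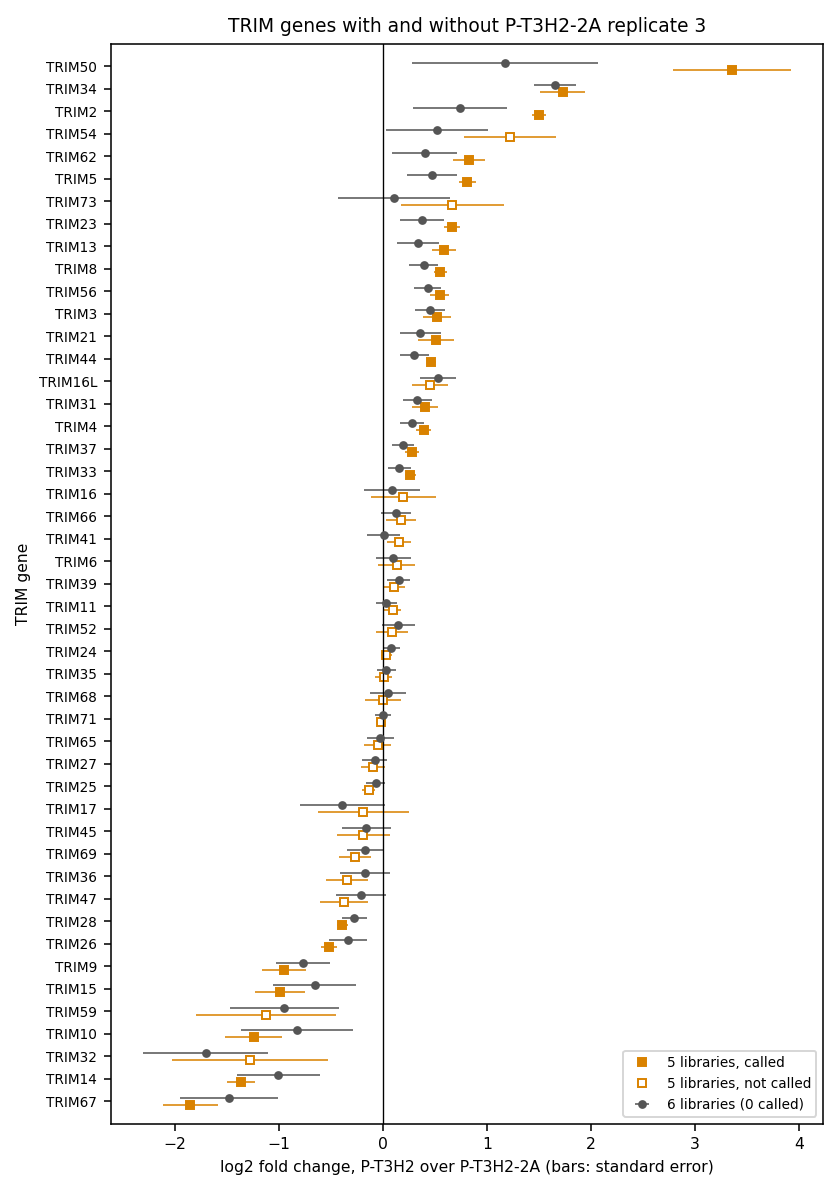
Log2 fold change, P-T3H2 over P-T3H2-2A, with its standard error for the same 47 genes, with 6 libraries (grey circles) and with 5 libraries (orange squares, filled where adjusted p is at most 0.05). TRIM34 is at 1.66 with 6 libraries and 1.73 with 5, whereas TRIM2 is at 0.74 with 6 and 1.50 with 5.

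The chromosome 11 cluster holds TRIM6, TRIM34, TRIM5 and TRIM22 side by side, with a readthrough gene, TRIM6-TRIM34, annotated across the first pair. TRIM34 encodes a capsid-binding partner of TRIM5, the restriction factor that recognises the capsid of incoming retroviruses. TRIM34 (ENSG00000258659) spans chr11:5619764-5644398 on the plus strand (GRCh38), and the readthrough (ENSG00000258588) spans chr11:5596725-5644398 on the same strand. In GENCODE release 29 the readthrough covers 2233 of the 2690 exon bases of TRIM34 (83.0%) and 1158 of the 3947 exon bases of TRIM6 (29.3%), so reads from most of TRIM34 lie in bases that both genes hold. The 2 genes have different starts. The windows of 250 bases before the RefSeq starts (GRCh38.p14) are shown because TRIM34 and the readthrough differ there: the readthrough starts with TRIM6, whose window is the same, and TRIM34 has 2 starts of its own. Capitals mark matches to the core of the interferon-stimulated response element, GAAA, any 2 bases and GAAA again, on either strand (on the other strand it reads TTTC, any 2 bases, TTTC). TRIM5 and TRIM14, described further on, are shown beside them. RefSeq places the first TRIM34 window, chr11:5624751-5625000, and the second, chr11:5632005-5632254, on the plus strand inside the span that the table gives the gene. The second held no match and is not printed. The windows of TRIM6 and TRIM6-TRIM34 (chr11:5596387-5596636, plus strand), TRIM5 (chr11:5685075-5685324, minus strand) and TRIM14 (chr9:98119223-98119472, minus strand) read 5′ to 3′ along the gene.
TRIM34, first window: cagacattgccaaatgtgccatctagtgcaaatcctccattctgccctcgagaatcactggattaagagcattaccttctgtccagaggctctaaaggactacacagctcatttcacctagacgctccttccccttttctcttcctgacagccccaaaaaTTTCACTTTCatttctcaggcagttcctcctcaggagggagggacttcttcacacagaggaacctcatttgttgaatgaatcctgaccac
TRIM6 and TRIM6-TRIM34: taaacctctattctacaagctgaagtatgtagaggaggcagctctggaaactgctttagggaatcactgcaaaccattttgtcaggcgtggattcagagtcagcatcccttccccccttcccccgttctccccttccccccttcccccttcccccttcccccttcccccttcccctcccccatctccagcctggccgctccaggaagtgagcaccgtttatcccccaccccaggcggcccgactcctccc
TRIM5: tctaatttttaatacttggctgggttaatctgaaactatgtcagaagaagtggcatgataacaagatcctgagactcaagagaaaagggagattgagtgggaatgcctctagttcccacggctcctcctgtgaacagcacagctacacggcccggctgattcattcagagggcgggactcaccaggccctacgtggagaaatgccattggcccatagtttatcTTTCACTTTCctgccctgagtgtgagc
TRIM14: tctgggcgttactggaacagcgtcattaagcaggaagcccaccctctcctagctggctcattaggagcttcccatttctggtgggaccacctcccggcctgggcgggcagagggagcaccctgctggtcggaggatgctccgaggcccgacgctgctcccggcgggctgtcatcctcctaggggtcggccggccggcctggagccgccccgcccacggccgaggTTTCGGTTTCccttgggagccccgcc

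The element ended 80 bases before the start in the first TRIM34 window, 17 bases in the TRIM5 window and 16 bases in the TRIM14 window, and the TRIM6 window held no match. Over the family, windows were found for 56 members (75 windows, since some genes have several starts), and 9 windows held the element (12%, against 3.02% of all 35116 windows). The genes were TRIM2, TRIM5, TRIM14, TRIM16, TRIM26, TRIM34, TRIM44, TRIM64C and TRIM69. Of these, TRIM2, TRIM5, TRIM34 and TRIM44 were higher, TRIM14 and TRIM26 lower, TRIM16 and TRIM69 not called and TRIM64C at 0 counts, in the 5-library fit. That fit called 45.4% of all genes, 22.6% higher and 22.8% lower. The TRIM34 call ended when the readthrough's counts were added to it, as given further on. A link between the element and the calls was not tested. The STAT site core TTCNNNGAA was in 12 member windows (16.0%, against 6.57% of all), of 11 genes. Those with counts were TRIM2, TRIM3, TRIM7, TRIM15, TRIM16 and TRIM46. TRIM40, TRIM49, TRIM49C, TRIM64 and TRIM64B had 0 counts in every library. CAAAGTCCA, an HNF4A site, was in 1 member window, that of TRIM40 (1.33%, against 0.325% of all). Both strands were searched, a match is only a match of letters, and the element may overlap other motifs.

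TRIM34 was the member with the clearest split between the peptides. It had 4.93, 5.50 and 7.11 CPM in P-T3H2 libraries, against 1.73, 1.78 and 2.02 CPM in P-T3H2-2A libraries. The groups did not overlap, and P-T3H2-2A replicate 3 lay with its own group. With 6 libraries the difference was 1.66 on the log2 scale (SE 0.201, adjusted p = 0.275 by edgeR), and with 5 it was 1.73 (SE 0.219, adjusted p = 0.000816). The readthrough TRIM6-TRIM34 went the other way, at 3.30, 0 and 0.282 CPM in P-T3H2 libraries and 5.604, 5.19 and 6.54 CPM in P-T3H2-2A libraries. All 3 P-T3H2 libraries lay below all 3 P-T3H2-2A libraries, but the P-T3H2 libraries differed widely among themselves. The readthrough was not called: its log2 fold change was -2.26 with 6 libraries (edgeR adjusted p = 0.279) and -2.16 with 5 (edgeR adjusted p = 0.264).

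Taken as 1 sum, TRIM34 and the readthrough had 8.24, 5.50 and 7.39 CPM in P-T3H2 libraries and 7.34, 6.97 and 8.57 CPM in P-T3H2-2A libraries. The groups overlapped, so the difference seen for TRIM34 was not present in the sum. The readthrough's share of that sum was 40.1%, 0% and 3.82% in P-T3H2 libraries, against 76.4%, 74.5% and 76.4% in P-T3H2-2A libraries. With the readthrough's counts added to TRIM34 before the fit, the estimate on the log2 scale was -0.12 (SE 0.189, edgeR adjusted p = 0.714) with 6 libraries and -0.02 (SE 0.184, adjusted p = 0.929) with 5, and DESeq2 gave -0.12 (adjusted p = 0.791). The TRIM34 call thus ended when the overlapping gene was counted with it. A change in which transcript was made and a change in how shared reads were assigned cannot be told apart from gene counts. In the plot of the locus, the TRIM34 and readthrough panels mirror each other and the panel of their sum is level.

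**Figure D4:**
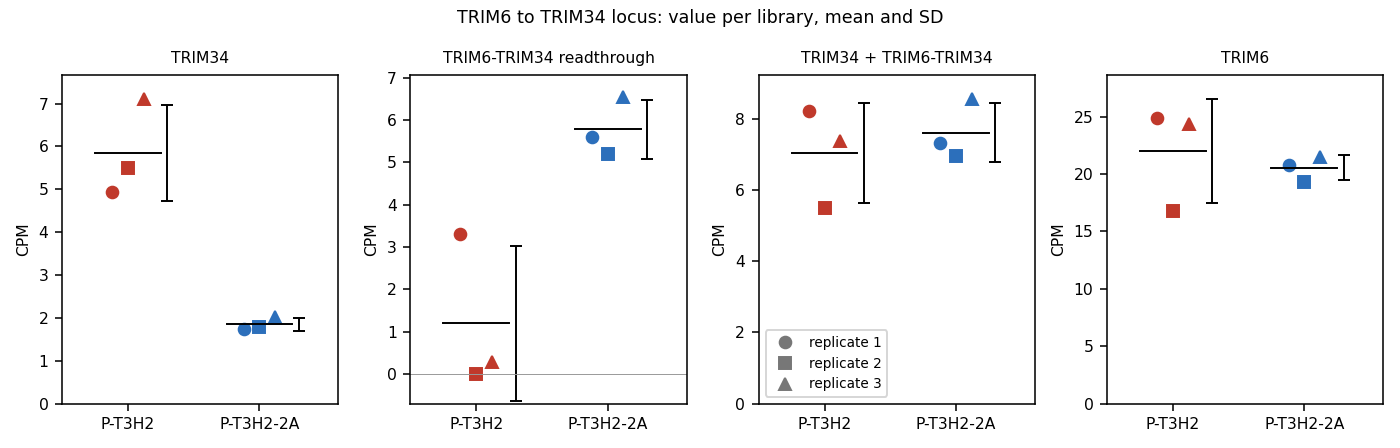
CPM in each library for TRIM34, the readthrough TRIM6-TRIM34, the sum of both, and TRIM6 (points by replicate; black line, mean; bar, SD, n = 3, which passes below 0 for the readthrough). TRIM34 averaged 5.85 CPM in P-T3H2 and 1.85 CPM in P-T3H2-2A libraries, and the sum averaged 7.04 CPM in P-T3H2 and 7.63 CPM in P-T3H2-2A libraries.

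TRIM6, which makes unanchored ubiquitin chains in interferon signalling, had 24.9, 16.8 and 24.3 CPM in P-T3H2 libraries and 20.8, 19.3 and 21.5 CPM in P-T3H2-2A libraries. The groups overlapped, with a log2 fold change of 0.10 (edgeR adjusted p = 0.720) with 6 libraries and 0.13 (adjusted p = 0.589) with 5. TRIM5 had 28.9, 26.7 and 26.1 CPM in P-T3H2 libraries and 15.3, 15.7 and 27.9 CPM in P-T3H2-2A libraries. Replicate 3 of P-T3H2-2A was level with the P-T3H2 libraries and the other two were clearly lower. The log2 fold change was 0.47 (edgeR adjusted p = 0.295) with 6 libraries and 0.81 (SE 0.0853, edgeR adjusted p = 0.000376) with 5. TRIM22, an interferon-induced antiviral gene, lies on the strand opposite TRIM5 and shares no exon base with it. It was near the limit of detection, with 12, 12 and 6 counts in P-T3H2 libraries and 1, 3 and 4 counts in P-T3H2-2A libraries, and entered only the 5-library test, with a log2 fold change of 2.09 (SE 0.676, edgeR adjusted p = 0.0408). DESeq2 did not call TRIM22 with the same 5 libraries. The summed counts of TRIM6, TRIM34 and the readthrough were 33.1, 22.3 and 31.7 CPM in P-T3H2 libraries, against 28.1, 26.3 and 30.0 CPM in P-T3H2-2A libraries, and did not separate the groups.

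Of the PRY-SPRY members, 0 of 24 were called with 6 libraries, and 7 higher and 4 lower of 25 with 5 libraries, 44.0% of those tested beside 45.4% of all genes, with a median log2 fold change of 0.09. DESeq2 with 5 libraries called 5 higher and 4 lower of 26. TRIM14, a mitochondrial adaptor of RIG-I signalling that lacks a RING finger, was the lower PRY-SPRY gene with the smallest p. It had 12.01, 16.01 and 13.4 CPM in P-T3H2 libraries, against 33.0, 38.1 and 12.2 CPM in P-T3H2-2A libraries. Only P-T3H2-2A replicates 1 and 2 stood high. The log2 fold change was -1.01 (edgeR adjusted p = 0.275) with 6 libraries and -1.37 (SE 0.133, edgeR adjusted p = 0.000270) with 5. NANS, the sialic acid synthase gene on the opposite strand, shares 422 exon bases with TRIM14 (7.72%) and was also lower, at 26.6, 30.3 and 26.8 CPM in P-T3H2 libraries and 50.4, 49.4 and 26.1 CPM in P-T3H2-2A libraries. The strand setting of the counting is not given in the sources used here, so reads in shared bases may have gone to either gene. With NANS added, the TRIM14 difference was -1.04 on the log2 scale (SE 0.0868, edgeR adjusted p = 0.000151) with 5 libraries.

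TRIM62, a ligase linked to epithelial polarity, had 14.3, 11.7 and 15.01 CPM in P-T3H2 libraries and 8.55, 6.87 and 15.6 CPM in P-T3H2-2A libraries, and was called with 5 libraries (log2 fold change 0.40 with 6 and 0.83 with 5, edgeR adjusted p = 0.430 and 0.00470). TRIM50 had 52, 30 and 44 counts in P-T3H2 libraries and 6, 1 and 46 counts in P-T3H2-2A libraries. Here too replicate 3 of P-T3H2-2A matched P-T3H2, and the log2 fold change was 1.17 with 6 libraries and 3.36 with 5 (SE 0.567, edgeR adjusted p = 0.00289). TRIM50 has near-identical partial copies, TRIM73 and TRIM74, and TRIM16L is a partial copy of TRIM16, so their counts are uncertain. TRIM16L had 9.35, 13.3 and 10.3 CPM in P-T3H2 libraries and 8.38, 7.62 and 6.83 CPM in P-T3H2-2A libraries, and was called in neither fit. TRIM21, the cytosolic antibody receptor, sat on the threshold with 5 libraries (log2 fold change 0.51, edgeR adjusted p = 0.05) and was not called by DESeq2 there.

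A run of 3 neighbours in the major histocompatibility region of chromosome 6 were called lower with 5 libraries, and were picked out after their values were seen. That fit called 22.8% of all genes lower. TRIM10, known from red cell maturation, lies at chr6:30151945-30160934, TRIM15 at chr6:30163206-30172696 and TRIM26, which targets activated IRF3 for degradation, at chr6:30184455-30213427 (GRCh38). TRIM10 had 2.42, 2.17 and 1.22 CPM in P-T3H2 libraries, against 4.80, 4.40 and 1.18 CPM in P-T3H2-2A libraries. TRIM15 had 1.91, 3.09 and 2.73 CPM in P-T3H2 libraries, against 5.84, 4.40 and 2.02 CPM in P-T3H2-2A libraries. TRIM26 had 58.0, 63.4 and 54.2 CPM in P-T3H2 libraries, against 83.8, 83.7 and 54.3 CPM in P-T3H2-2A libraries. In each of the 3 genes P-T3H2-2A replicates 1 and 2 were the high libraries. Their log2 fold changes with 5 libraries were -1.24, -0.99 and -0.52 (edgeR adjusted p = 0.00913, 0.0137 and 0.00157), and with 6 libraries -0.83, -0.66 and -0.34 (adjusted p = 0.363, 0.340 and 0.305). TRIM31 in the same region, a ligase for MAVS, was higher with 5 libraries (0.41, edgeR adjusted p = 0.0351) but was not called by DESeq2, and TRIM39 was not called (0.11, adjusted p = 0.417).

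Of the 4 PHD and bromodomain members, 1 was higher and 1 lower with 5 libraries, beside 45.4% of all genes called, and 0 were called with 6. TRIM66, counted with TRIM24, TRIM28 and TRIM33, was not called (log2 fold change 0.17 with 5 libraries, edgeR adjusted p = 0.361). TRIM28 had 289.7, 308.6 and 286.3 CPM in P-T3H2 libraries and 382.2, 391.1 and 299.5 CPM in P-T3H2-2A libraries. It was low in the P-T3H2 libraries and in P-T3H2-2A replicate 3, with a log2 fold change of -0.28 (edgeR adjusted p = 0.275) with 6 libraries and -0.39 (SE 0.0510, edgeR adjusted p = 0.000919) with 5. TRIM33, a ligase for SMAD4, had 84.0, 81.0 and 81.7 CPM in P-T3H2 libraries and 69.1, 67.8 and 84.3 CPM in P-T3H2-2A libraries, and was called higher with 5 (log2 fold change 0.16 with 6 and 0.26 with 5, edgeR adjusted p = 0.376 and 0.00613). TRIM24, a coregulator of nuclear receptors, had 126.4, 128.6 and 127.4 CPM in P-T3H2 libraries and 119.9, 129.7 and 112.7 CPM in P-T3H2-2A libraries. Its groups overlapped and it was not called (0.03 with 5 libraries, SE 0.0532, adjusted p = 0.688). Of 12 partners of TRIM28 in silencing, 2 were higher with 5 libraries and 0 lower (16.7% called, beside 45.4% of all genes). These were MORC2, a chromatin compactor (0.31, edgeR adjusted p = 0.00979), and CHD3, a NuRD remodeller (0.25, adjusted p = 0.0116), while the other 10 did not pass.

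Of the 5 NHL or filamin members, 2 were higher with 5 libraries and 0 lower (40.0% called, beside 45.4% of all genes), and 0 were called with 6. TRIM2, a ligase for neurofilament light chain in neurons, had the smallest p of all members in the 5-library fit. It had 164.5, 161.1 and 179.7 CPM in P-T3H2 libraries, against 57.3, 61.3 and 184.1 CPM in P-T3H2-2A libraries. P-T3H2-2A replicate 3 was the highest of the 6 and the other two P-T3H2-2A libraries were far below. On the log2 scale the difference was 0.74 (SE 0.452, edgeR adjusted p = 0.341) with 6 libraries and 1.50 (SE 0.0682, edgeR adjusted p = 2.02e-05) with 5. TRIM3, its close relative, had 7.07, 6.61 and 7.44 CPM in P-T3H2 libraries and 4.62, 5.19 and 5.602 CPM in P-T3H2-2A libraries. Its groups did not overlap and its log2 fold change hardly moved, 0.45 with 6 libraries (edgeR adjusted p = 0.275) and 0.52 with 5 (edgeR adjusted p = 0.0181). TRIM71 gave a log2 fold change of -0.0012 with 6 libraries (SE 0.0765) and -0.02 with 5 (SE 0.0494), and was not called.

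TRIM32, a ligase mutated in a limb-girdle muscular dystrophy, was the exception among them. It had 4.28, 5.02 and 4.14 CPM in P-T3H2 libraries and 18.3, 3.61 and 22.0 CPM in P-T3H2-2A libraries. Here P-T3H2-2A replicate 2 was the low one, and replicates 1 and 3 were high together. The log2 fold change was -1.71 with 6 libraries (edgeR adjusted p = 0.275), -1.28 with 5 (adjusted p = 0.248) and -2.30 against P-T3H2-2A replicate 3 alone (adjusted p = 0.00275). TRIM32 lies inside ASTN2 on the opposite strand and shares no exon base with it. TRIM59, a membrane-anchored member, was as uneven within a group, at 8.98, 7.38 and 1.84 CPM in P-T3H2 libraries and 13.8, 12.7 and 8.71 CPM in P-T3H2-2A libraries, and was called in neither fit. It shares 1561 exon bases (19.8%) with SMC4 on the opposite strand, which averaged 163.6 CPM in P-T3H2 and 202.9 CPM in P-T3H2-2A libraries. It also shares 1138 (14.5%) with AC079594.2 on its own strand. TRIM59 was not merged with SMC4, and the part of read assignment in its values was not tested.

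TRIM13, the other membrane-anchored member, sits on the endoplasmic reticulum and takes part in protein degradation there. It had 15.9, 13.1 and 14.1 CPM in P-T3H2 libraries and 9.42, 9.74 and 14.9 CPM in P-T3H2-2A libraries, and was called with 5 libraries (log2 fold change 0.58, SE 0.116, edgeR adjusted p = 0.00600) but not with 6 (0.34, adjusted p = 0.335). DLEU2, a noncoding RNA gene on the opposite strand that shares 346 exon bases with it (4.28%), was lower, at 5.35, 5.40 and 5.69 CPM in P-T3H2 libraries and 10.2, 9.94 and 4.57 CPM in P-T3H2-2A libraries. Their sum was 21.2, 18.5 and 19.8 CPM in P-T3H2 libraries and 19.6, 19.7 and 19.4 CPM in P-T3H2-2A libraries, which overlap. Added together before the fit, both genes gave a log2 fold change of 0.01 (SE 0.0896, edgeR adjusted p = 0.922) with 5 libraries, which was not called. The sum takes in all counts of 2 genes that moved in opposite directions, although only 4.28% of the TRIM13 exon bases are shared. A level sum therefore cannot show how shared reads were assigned, and the part of read assignment was not tested. The plot of overlapping neighbours shows the TRIM13 and DLEU2 panels in opposite directions, and TRIM14 and NANS in the same direction.

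**Figure D5:**
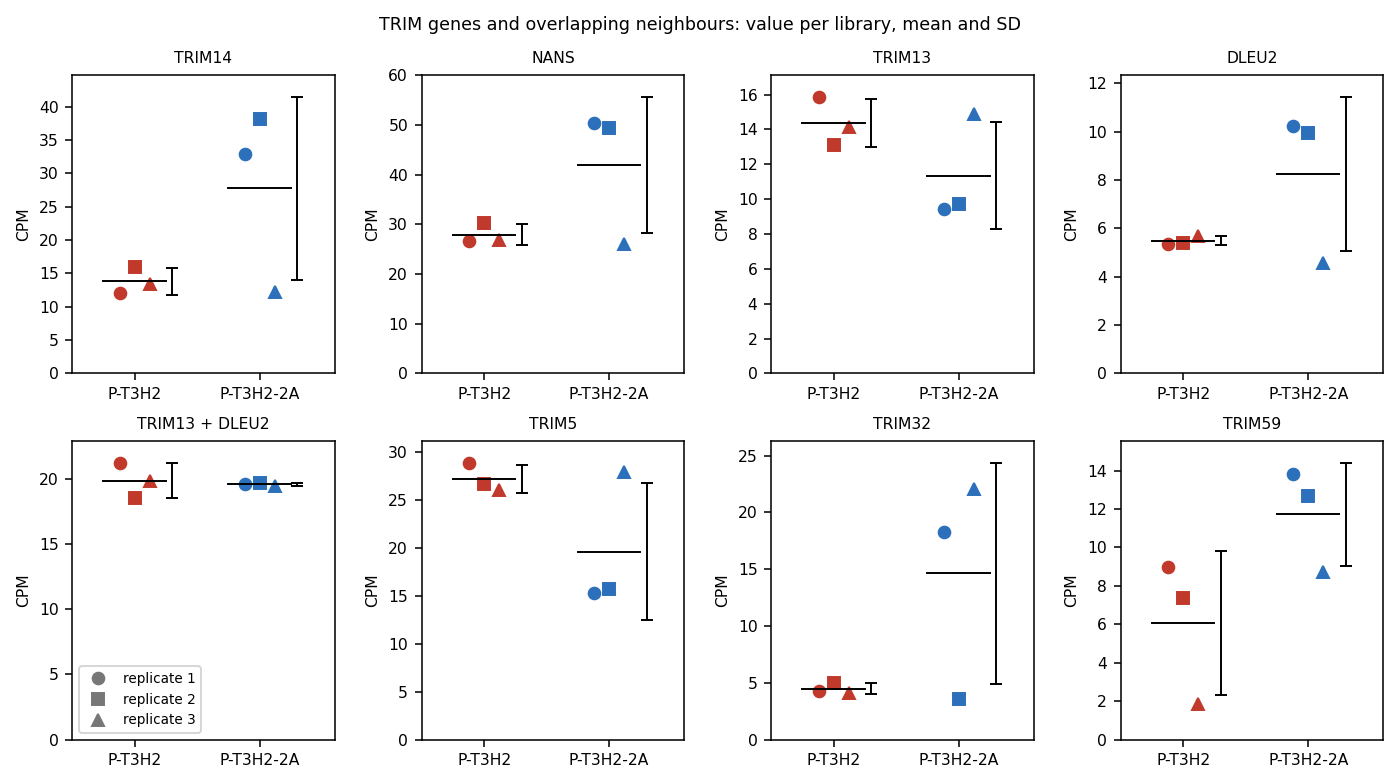
CPM in each library for TRIM14 and NANS, TRIM13, DLEU2 and their sum, TRIM5, TRIM32 and TRIM59 (points by replicate; black line, mean; bar, SD, n = 3). P-T3H2-2A replicate 3 (triangle) is level with P-T3H2 for TRIM14, NANS, TRIM13, DLEU2 and TRIM5, and for TRIM32 it is the highest library at 22.0 CPM.

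The members with no further C-terminal domain gave 4 higher and 0 lower of 6 with 5 libraries (66.7% called, beside 45.4% of all genes), and 0 calls with 6. DESeq2 with 5 libraries called 3 higher and 0 lower of 8, leaving out TRIM31. TRIM44, a RING-less relative with a ubiquitin-binding zinc finger, had 161.3, 156.6 and 160.7 CPM in P-T3H2 libraries and 115.3, 115.6 and 158.4 CPM in P-T3H2-2A libraries (log2 fold change 0.30 with 6 and 0.47 with 5, edgeR adjusted p = 0.279 and 0.000310). TRIM8, a ligase acting in NF-kB and STAT3 signalling, had 91.3, 89.5 and 98.8 CPM in P-T3H2 libraries and 63.3, 63.7 and 85.8 CPM in P-T3H2-2A libraries. Its groups did not overlap, although P-T3H2-2A replicate 3 came close, and the log2 fold change was 0.39 with 6 libraries and 0.55 with 5 (edgeR adjusted p = 0.275 and 0.000497). TRIM56, which acts in cytosolic DNA sensing, had 91.1, 94.0 and 78.1 CPM in P-T3H2 libraries and 58.8, 61.4 and 75.5 CPM in P-T3H2-2A libraries (0.43 with 6 and 0.54 with 5, edgeR adjusted p = 0.275 and 0.00259). TRIM23, the only member with an ARF GTPase domain, was higher with 5 libraries (0.66, edgeR adjusted p = 0.000565), as was TRIM37, the MATH domain ligase of peroxisomes and centrosomes (0.28, adjusted p = 0.0146).

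The members with COS, FN3 and SPRY domains gave 0 higher and 2 lower of 3 with 5 libraries (66.7% called, beside 45.4% of all genes), and 0 with 6. This subclass was drawn only from members taken by symbol, so MID1 and MID2, family members under other symbols, were not counted in it. With 5 libraries MID2 was higher (log2 fold change 2.15, edgeR adjusted p = 9.79e-05) and MID1 was not called (0.02, edgeR adjusted p = 0.911). TRIM67 had 11, 12 and 14 counts in P-T3H2 libraries and 32, 48 and 15 counts in P-T3H2-2A libraries, and its log2 fold change was -1.48 with 6 libraries and -1.85 with 5 (edgeR adjusted p = 0.275 and 0.00133). TRIM9, which acts in axon branching, had 30, 35 and 41 counts in P-T3H2 libraries and 61, 60 and 44 counts in P-T3H2-2A libraries (-0.77 with 6 and -0.95 with 5, edgeR adjusted p = 0.275 and 0.00941). Both had low levels, TRIM67 averaging 0.0446 FPKM in P-T3H2 and 0.125 FPKM in P-T3H2-2A cells, and TRIM9 averaging 0.137 FPKM in P-T3H2 and 0.233 FPKM in P-T3H2-2A cells. TRIM54, the muscle ligase MuRF3, was not called (1.22 with 5 libraries, edgeR adjusted p = 0.0607).

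Of 12 TRIM genes listed as interferon-inducible, 11 could be tested with 5 libraries. Of these, 6 were higher and 2 lower (72.7% called, beside 45.4% of all genes), with a median log2 fold change of 0.41, and with 6 libraries 0 of 10 were called. The higher ones were TRIM5, TRIM21, TRIM22, TRIM31, TRIM34 and TRIM56 and the lower ones TRIM14 and TRIM26. DESeq2 with the same libraries called 3 higher and 2 lower of 12, beside 37.8% of all genes, and did not call TRIM21, TRIM22 or TRIM31. The call of TRIM34 ended when the readthrough was merged with it. Of 17 further interferon response genes tested with 5 libraries, 5 were higher and 1 lower (35.3% called, beside 45.4% of all genes, 22.6% higher and 22.8% lower). DESeq2 called 3 of them higher and 1 lower, without JAK1 and TYK2. ISG15, a ubiquitin-like modifier, had 15.5, 13.3 and 16.1 CPM in P-T3H2 libraries and 9.01, 9.40 and 17.0 CPM in P-T3H2-2A libraries (log2 fold change 0.34 with 6 and 0.70 with 5, edgeR adjusted p = 0.426 and 0.00286). IFNAR1, a chain of the interferon receptor, rose in the 5-library fit too (0.39, adjusted p = 0.00578), and IFIT1, an interferon-induced RNA-binding protein, was the 1 that fell (-1.18, adjusted p = 0.0137). Of 10 RIG-I-like signalling genes, 3 were higher and 2 lower with 5 libraries, beside 45.4% of all genes called, and by DESeq2 2 were higher and 2 lower, without IFIH1. DDX58, the RIG-I sensor, was at 12.7, 10.99 and 11.9 CPM in P-T3H2 libraries and 6.01, 6.68 and 12.7 CPM in P-T3H2-2A libraries (0.48 with 6 and 0.90 with 5, edgeR adjusted p = 0.339 and 0.00111), and MAP3K7, the kinase TAK1, was lower with 5 (-0.37, adjusted p = 0.00136).

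The E2 enzymes that RING ligases work with gave 0 higher and 4 lower of 12 with 5 libraries (33.3% called, beside 45.4% of all genes, 22.8% lower) and 0 calls with 6. DESeq2 with 5 libraries called 1 higher and 4 lower. UBE2N, which builds K63-linked chains, and UBE2E1 had log2 fold changes of -0.29 each (edgeR adjusted p = 0.00429 and 0.00545), and UBE2D2 and UBE2V2 were the other two, of which DESeq2 did not call UBE2V2. Family members known by other symbols included MID2 (also TRIM1), a microtubule-binding ligase, the 1 called of 3 tested. It had 10.6, 10.8 and 8.89 CPM in P-T3H2 libraries and 2.25, 2.28 and 8.76 CPM in P-T3H2-2A libraries, with a log2 fold change of 1.18 with 6 libraries and 2.15 with 5 (SE 0.158, edgeR adjusted p = 0.279 and 9.79e-05). PML (also TRIM19), which builds nuclear bodies, was not called (-0.42 with 5 libraries, adjusted p = 0.216).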

How the data were processed

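RNA sequencing of total RNA from 6 Huh7 libraries was analysed, grouped by titles and treatment labels. The authors deposited whole-number gene counts and FPKM for 50868 genes, per the file headers. The submitters' processing notes list the tools HISAT2 2.0.4, StringTie 1.3.3b and edgeR, and also the mouse build mm10, whereas the table lists human Ensembl genes; of these IDs 50111 are in GENCODE release 29 (GRCh38) and 47484 have identical coordinates. How strand was handled in counting is not given in the sources used here. Per the labels there were 2 library kits, tied to no particular library. The deposited FPKM equal count divided by library total and 1 length per gene (13364 of 13364 genes with at least 20 counts in each library, within 0.001) and were used only for levels.

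The whole table of counts entered edgeR 4.0.16 (R 4.3.3), with TMM and filterByExpr (minimum count 10, total 15). The quasi-likelihood fit was robust and had no term but the peptide; p-values were adjusted over all genes by Benjamini-Hochberg and called at 0.05. SE is the size of the log2 fold change divided by the square root of F. CPM used the library total and TMM factor. Depth bounds counting error only; the SE also holds the spread between libraries. Every pair of libraries differed beyond sampling noise, with a chi-square of 11.6 or more per gene where a pair held 20 or more counts.

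Members, gene lists and the rule for named genes were chosen with earlier results of these data known. The rule takes the chromosome 11 cluster, any member called with 6 libraries, the 5 largest log2 fold changes each way (mean of at least 1 CPM) with 6 and with 5 libraries, the 5 highest FPKM, the 2 smallest p per subclass and per list, and TRIM24, TRIM28 and TRIM33. TRIM10, TRIM15, TRIM26, TRIM31 and TRIM39 as neighbours, TRIM16L's source gene, TRIM21, TRIM56, TRIM66, MID1, IFIT1, JAK1, TYK2, IFIH1, ALB, AHSG, APOB, VWF, UBE2D2 and UBE2V2 were named outside it or once values were known. Alternatives used DESeq2 1.42.0 and its size factors, library totals, no low-count filter beyond 1 count, the replicate number as a block, leaving out each library and P-T3H2-2A replicate 3 as sole control; overlapping genes merged, and combinations without that library, were added after the data were seen. The procedure was tested on simulated data. No simulated library lay with the other group, so that test does not bear on the 5-library calls. Promoter windows are RefSeq's (GRCh38.p14), searched on both strands. Genes other than the members and lists were not analysed here beyond the fit.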

Additional observations from a re-analysis of the deposited data

How the results depend on the processing

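Without P-T3H2-2A replicate 3, TRIM members past the threshold numbered 24; leaving out each library in turn gave 0 to 24, and for all genes 0 to 7390. DESeq2 called 1 member and 117 genes, and P-T3H2-2A replicate 3 as sole control 1 and 62. No low-count filter gave 4 genes in all. With combinations chosen after the data were seen, without that library, DESeq2 called 21 members and 6643 genes and library totals 24 and 7381. With the readthrough merged without it the counts were 23 and 7390, with the TRIM6 to TRIM34 locus merged 23 and 7389, and with opposite-strand partners merged 22 and 7386, where TRIM13 was lost, and TRIM21, which lay on the threshold and was merged with no gene. DESeq2 on those 3 merges with 6 libraries gave 115, 116 and 117 genes in all, and 1 member with opposite-strand partners merged. The cause of these differences was not tested.

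Same-numbered libraries of the 2 peptides had correlations of their deviations of -0.051, 0.163 and 0.112. Differently numbered ones had -0.19 to 0.132. With 3 libraries per group and P-T3H2-2A replicate 3 among them, these values cannot decide whether the numbers pair the libraries. With the number as a replicate block, 0 members and 0 genes were called.

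The sole-control fit reversed TRIM5 (-0.0340), TRIM14 (0.17), TRIM10 (0.72), TRIM50 (-0.13), TRIM2 (-0.13), TRIM62 (-0.19), TRIM71 (0.0344), TRIM26 (0.11), TRIM23 (-0.0669), TRIM54 (-0.26), TRIM33 (-0.0349), TRIM13 (-0.0488), MORC2 (-0.0474), CHD3 (-0.0657), DDX58 (-0.10), ISG15 (-0.18) and IFNAR1 (-0.0617), as log2 fold changes. TRIM34 reversed with the readthrough merged, to -0.12 with 6 libraries, -0.0234 with 5 and -0.12 by DESeq2. TRIM71, near 0, reversed with library totals (0.0041) and when P-T3H2 replicate 3 or P-T3H2-2A replicate 2 was left out (0.0092 and 0.0269, in a range of -0.0260 to 0.0269 over the libraries left out). Of the other values of single genes over all settings, 634 kept direction and side of the threshold and 162 gained a call. These genes were not called with all 6 libraries, so the 634 were uncalled in both fits. The gained calls were 26 or 27 in each setting without P-T3H2-2A replicate 3 and at most 1 in any other.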
